A study of Saccharomyces cerevisiae with 16 samples.

Results

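The small (40S) ribosomal subunits that were captured through eIF3a and through eIF3c were compared in Saccharomyces cerevisiae, gene by gene and area by area. The members were 4 of the 16 libraries of the series. They were the eIF3a-bound 40S library numbered 1-1, the eIF3c-bound 40S library numbered 1-2, and the unselected 40S library with each of these numbers. Translation complexes had been fixed in living cells, trimmed with RNase and sequenced as footprints (selective translation complex profiling), and the deposited gene table counts those footprints in 5 areas of 5818 genes. Number 1-1 came from strain SY182, in which the eIF3a gene (TIF32, listed as RPG1) carries a FLAG tag, and number 1-2 from strain H25, in which the eIF3c gene (NIP1) carries it. Both grew in YPD at 30 °C in a 1 litre culture. Formaldehyde at 0.8% was applied on ice for 1 h, and fragments of about 18 to 85 nt were sequenced. The selected libraries passed through an anti-FLAG immunoprecipitation after the 40S fraction was isolated, and the unselected libraries did not. Each factor had 1 library and a strain of its own, so no difference below has a replicate check, and strain, tag and factor cannot be told apart.

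eIF3 is the largest initiation factor. It binds the 40S subunit, helps to recruit the mRNA and takes part in scanning and start codon recognition. eIF3a and eIF3c (Nip1) are its core subunits in yeast, and both belong to the same complex. eIF3c contacts eIF1 and eIF5, and eIF3a reaches around the 40S subunit toward the mRNA entry and exit channels.

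The eIF3a-bound library held 3403297 counts and the eIF3c-bound library 4440991. The unselected libraries held 2800652 counts for 1-1 and 1595793 for 1-2. A gene was compared in an area when the selected libraries together had at least 100 counts there and the unselected libraries together at least 50. For each gene the following log2 quantities were computed. The direct difference is eIF3a-bound minus eIF3c-bound. The unselected difference is 1-1 minus 1-2. The scaled difference is each selected library over its own unselected library, eIF3a minus eIF3c. Each was set to 0 at the median gene of the area. A gene was called when the direct and the scaled difference were both at least 2-fold in the same direction. Confidence intervals of 95% cover counting error only.

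Both selections placed about the same share of their footprints upstream of and at start codons. Leaders (5′ UTRs) held 19% of eIF3a-bound counts and 18.6% of eIF3c-bound counts, against 9.09% and 9.57% in the matching unselected libraries. The share over the unselected library was 2.09-fold with eIF3a and 1.94-fold with eIF3c. At start codons the eIF3a-bound library held 61.5% and the eIF3c-bound library 62.6%, against 57.6% and 53.3% unselected. The coding region held 17.7% with eIF3a and 16.1% with eIF3c, where 28.1% and 31.1% of unselected counts lay.

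As a ratio of shares, the selections differed most at and after the stop codon, the areas with the fewest counts. In percentage points the largest difference was that of the coding region (1.53, higher with eIF3a). The stop codon held 0.499% of eIF3a-bound counts (Wilson interval 0.491% to 0.506%) and 0.789% of eIF3c-bound counts (0.781% to 0.797%). The unselected libraries held 2.18% and 2.37% there. The eIF3c-bound share was 1.58-fold the eIF3a-bound share, and 1.46-fold after scaling by the unselected libraries. The 3′ UTR share was 1.32% with eIF3a and 1.97% with eIF3c, 1.5-fold directly and 1.21-fold scaled. The unselected 3′ UTR shares, 3.00% for 1-1 and 3.70% for 1-2, differed in the same direction. In the coding region the scaled ratio was 1.21-fold toward eIF3a, as large as that of the 3′ UTR toward eIF3c.

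**Figure D1:**
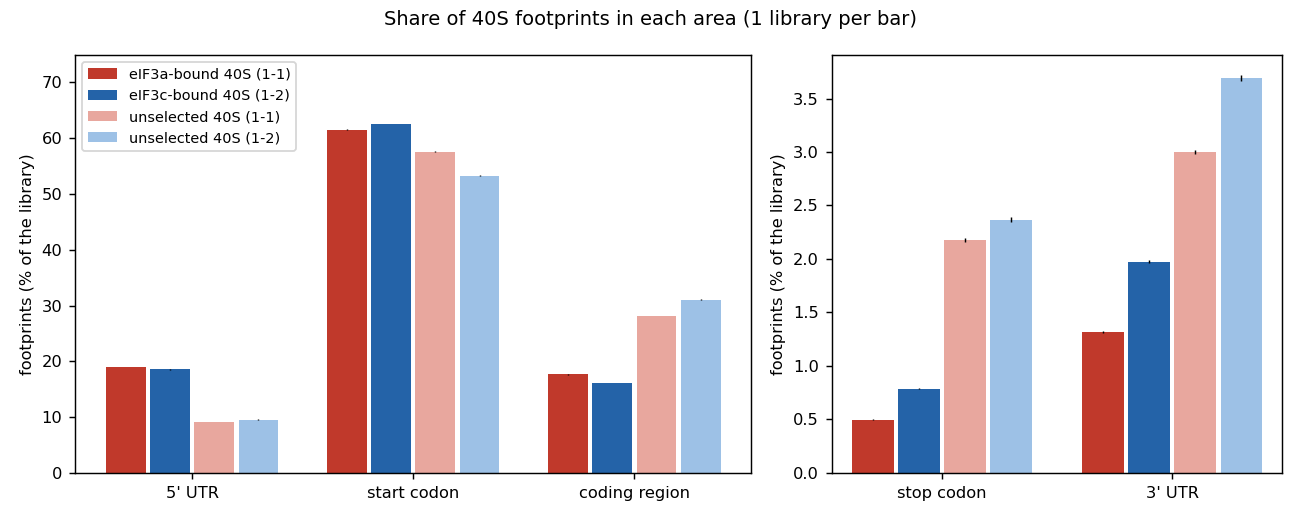
Share of each library's footprints in the 5 areas, in percent of all counts of that library, as 1 bar per library with 95% Wilson intervals for counting error. The eIF3a-bound and eIF3c-bound bars stand near each other in leaders (19% and 18.6%) and at start codons (61.5% and 62.6%), and the eIF3c-bound bar is higher at stop codons (0.789% against 0.499%).

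Compared directly, footprint ends around start codons separated the factors on the 5′ side more than on the 3′ side. In the authors' mean over genes, 5′ ends peaked 13 nt upstream of the start codon (position −13) in all 4 libraries. That position held 11.9% of the ends with eIF3a (the authors' 95% limits were 10.5% and 13.4%) and 10.6% with eIF3c (9.51% and 11.9%), against 24.5% and 25.4% unselected. The limits of the selected libraries overlapped there.

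Further upstream the eIF3c-bound library held more 5′ ends. Positions −50 to −26 held 32.8% of its 5′ ends, against 19% with eIF3a, 7.56% in unselected 1-1 and 5.16% in unselected 1-2. The unselected libraries differed the other way. At position −34 the share was 1.68% with eIF3c (1.52% to 1.84%) and 0.863% with eIF3a (0.776% to 0.966%). Between −50 and −26 the authors' limits of the selected libraries did not overlap at 24 positions, and eIF3c was higher at each of them.

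Close to the start codon the order was reversed. Positions −10 to −3 held 14.1% of 5′ ends with eIF3a and 7.97% with eIF3c, against 10.7% and 13.6% unselected. At position −4 eIF3a had 2.42% (2.19% to 2.68%) and eIF3c 1.18% (1.06% to 1.31%). The limits were apart, with eIF3a higher, at 10 positions from −15 to −4. The median 5′ end lay at −15 with eIF3a, at −18 with eIF3c and at −13 in both unselected libraries.

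The 3′ ends of the selected libraries were alike at their peak. Both peaked at position 24, with 10.8% in the eIF3a-bound library (8.94% to 13.1%) and 11.1% in the eIF3c-bound library (9.20% to 13.5%). Both unselected libraries peaked at position 15, with 16.5% and 16.3%, where the eIF3a-bound library had 3.72% and the eIF3c-bound library 3.16%. Positions 6 to 13 held 16.4% with eIF3a and 12.3% with eIF3c, against 16.1% in unselected 1-1 and 24.9% in unselected 1-2. The unselected libraries thus differed the other way there as well. Of the positions whose limits were apart, 10 from 6 to 15 were higher with eIF3a and 14 from 36 to 50 were higher with eIF3c.

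**Figure D2:**
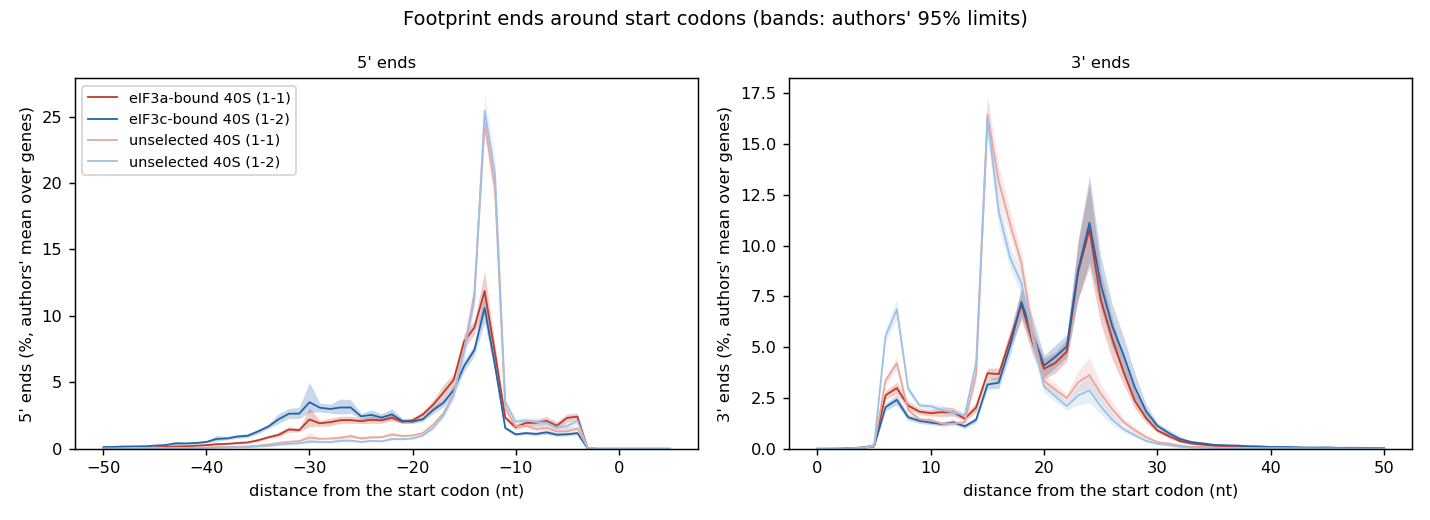
Percent of 5′ ends (left) and 3′ ends (right) of start-codon footprints by distance from the start codon in nt, as the authors' mean over genes with their 95% limits as bands, for the 4 libraries. The eIF3c-bound line lies above the eIF3a-bound line upstream of −25 and below it from −10 to −3, and both selected lines peak at 24 on the 3′ side, where the unselected lines peak at 15.

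At start codons most genes with a 2-fold direct difference also differed between the unselected libraries, and in the other areas fewer did. At start codons 65 of 1975 genes (3.29%) were at least 2-fold higher with eIF3a and 57 (2.89%) with eIF3c. Of these 122 genes, 80 (65.6%) differed at least 2-fold in the same direction between the unselected libraries, 41 toward 1-1 and 39 toward 1-2. In leaders 53 of 996 genes (5.32%) were 2-fold higher with eIF3a and 33 (3.31%) with eIF3c, and 37 of the 86 had such an unselected difference. In coding regions the counts were 32 of 1820 (1.76%) and 38 (2.09%), with 33 of the 70. At stop codons no gene of 88 passed directly in either direction (0%). In 3′ UTRs 15 of 215 genes (6.98%) were higher with eIF3a and 2 (0.93%) with eIF3c, and 4 of the 17 had it.

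Across genes the direct and the unselected difference had a Pearson correlation of 0.84 at start codons (1975 genes), 0.71 in leaders (996 genes) and 0.49 in coding regions (1820 genes). The Spearman correlations, which use ranks and so weigh extreme genes less, were lower, at 0.58, 0.45 and 0.33. Each selected library shares its strain with its unselected library, and genes are not independent replicates. The middle 50% of genes spanned 0.59 (log2) directly and 0.53 scaled at start codons, 0.70 and 0.71 in leaders, and 0.61 and 0.65 in coding regions. The median gene's counting error (SE) of the scaled difference was 0.28 in each of leaders and start codons and 0.30 in coding regions. An SE and the span of the middle 50% are different measures of spread, so these values cannot be set against each other directly.

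Mating-type genes stood at both ends of the direct scale. Haploid yeast is of mating type a or α, and each type expresses its own pheromone and the receptor for the other. The a-specific and α-specific lists, and the iron list below, were drawn up after these values were seen. STE2, the receptor for α-factor (chromosome VI, 82580 to 83875, build R64), had 409 start codon counts with eIF3a, 4 with eIF3c, 404 in unselected 1-1 and 1 in unselected 1-2. Its direct difference was 6.89 and its scaled difference −0.19. MFA2, which encodes a-factor, had 3037, 62, 2914 and 11 counts in that order, and a scaled difference of −1.0. MF(ALPHA)1, which encodes α-factor, had 138 counts with eIF3a, 13618 with eIF3c, 80 in unselected 1-1 and 3894 in unselected 1-2. Its direct difference was −6.24 and its scaled difference 0.36. STE3, the receptor for a-factor, had 0, 161, 0 and 51 counts. Libraries of 1-1 thus held a-type footprints and libraries of 1-2 α-type footprints. In such bulk samples, fewer cells with an mRNA and less of it per cell cannot be told apart.

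Iron genes, and some single genes of other kinds, followed the same layout. FIT3, a cell wall mannoprotein that helps to retain iron carriers, had 2784 start codon counts with eIF3a, 126 with eIF3c, 1415 in unselected 1-1 and 41 in unselected 1-2. Of 16 genes of iron uptake and retention, 7 had enough start codon counts, with a median direct difference of 3.23, a median unselected difference of 2.23 and a median scaled difference of 0.25. Over all 16 the start codon counts were 6458 with eIF3a, 761 with eIF3c, 4569 in unselected 1-1 and 246 in unselected 1-2. Genes of this list thus reached the minimum mainly through the 1-1 libraries, which favours a high direct and unselected median. These medians describe the 7 genes only. LEU2, an enzyme of leucine synthesis, had 1143, 98, 799 and 33 counts and a scaled difference of 0.34. The 52 amino acid biosynthesis genes compared at start codons had a median direct difference of 0.24 and a median unselected difference of 0.39, so LEU2 does not stand for that list. In the other direction TIP1, a cell wall mannoprotein, had 674 counts with eIF3a, 9152 with eIF3c, 431 in unselected 1-1 and 2222 in unselected 1-2, and a scaled difference of −0.02.

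**Figure D3:**
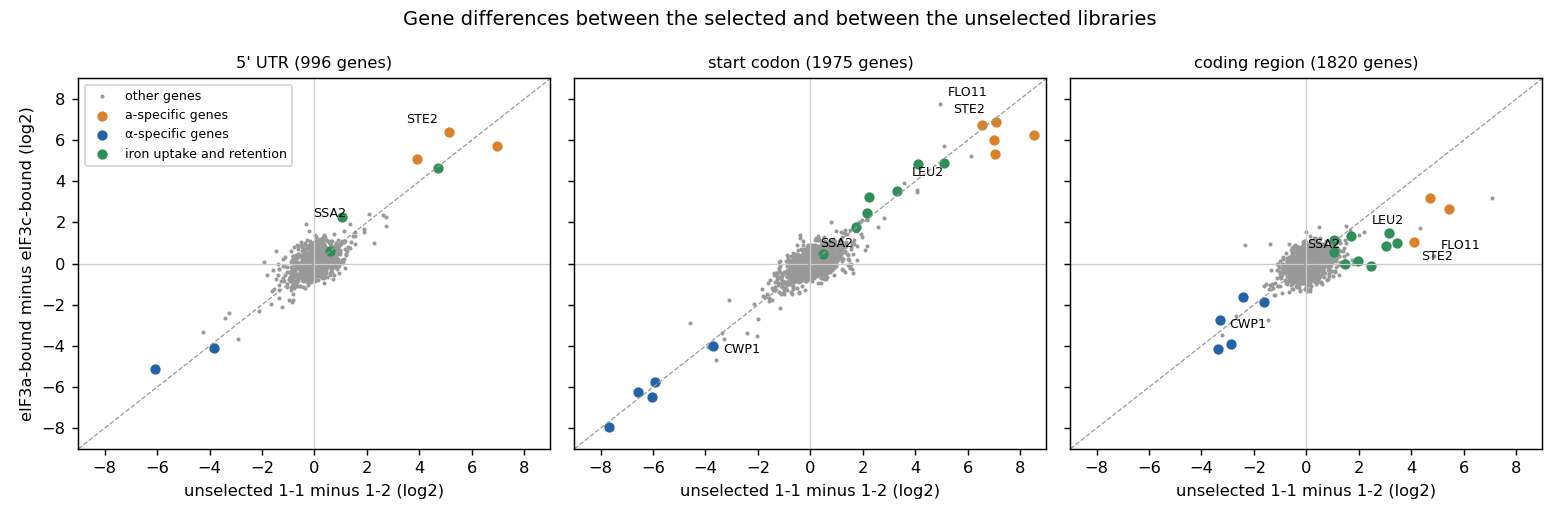
Each point is 1 gene, with the unselected difference (1-1 minus 1-2, log2) on the x axis and the direct difference (eIF3a-bound minus eIF3c-bound, log2) on the y axis, for leaders, start codons and coding regions, and a dashed line of equal values. At start codons the α-specific genes lie at the lower end near the dashed line (median scaled difference −0.27) and the a-specific genes at the upper end, most of them below it (median −1.0), and in coding regions the a-specific and iron genes lie below it.

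For genes found mainly in 1 strain, the libraries of the other strain held a larger share of the coding counts than of the start codon counts. Over the 7 a-specific genes, the eIF3c-bound library held 125 start codon counts and the eIF3a-bound library 5702, a share of 1.68% after division by library totals. In the coding region it held 405 and the eIF3a-bound library 1507, a share of 20.6%. At stop codons the share was 111%, from 61 counts with eIF3c and 42 with eIF3a, and in 3′ UTRs 53.5%, from 317 and 454 counts.

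The unselected 1-2 library had 0.569% of unselected 1-1 over the same start codons, 4.93% in coding regions and 2.27% in 3′ UTRs. The eIF2β-bound library, from a further strain with α-type mRNAs, had 0.931%, 5.08% and 6.02% of the eIF3a-bound library. For α-specific genes the eIF3a-bound library held 1.61% of the eIF3c-bound library at start codons and 10.1% in coding regions. Unselected 1-1 held 1.63% and 11.3% of unselected 1-2. The share was thus higher in coding regions than at start codons in each of these pairs, and the highest coding share for the a-specific genes was that of the eIF3c-bound library.

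FLO11, a cell surface flocculin, shows it in 1 gene (chromosome IX, 389572 to 393675). It had 263 coding counts with eIF3a, 260 with eIF3c, 1035 in unselected 1-1 and 22 in unselected 1-2. At its start codon the counts were 252, 1, 462 and 7. STE2 had 171, 105, 256 and 9 coding counts. The iron genes did likewise, with an eIF3c-bound share of 9.03% of the eIF3a-bound library at start codons and 57.5% in coding regions. Over the iron genes unselected 1-2 held 9.45% of unselected 1-1 at start codons and 26.9% in coding regions. The part of such counts in the coding, stop codon and 3′ UTR results of the eIF3c-bound library was not tested.

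Few genes differed at least 2-fold both directly and after scaling. In leaders 18 of 996 genes (1.81%) were called higher with eIF3a and 0 (0%) with eIF3c. At start codons 9 of 1975 (0.456%) were called higher with eIF3a and 3 (0.152%) with eIF3c. In coding regions 7 of 1820 (0.385%) were called higher with eIF3a and 13 (0.714%) with eIF3c. At stop codons the counts were 0 and 0 of 88 genes (0%), and in 3′ UTRs 5 (2.33%) and 2 (0.93%) of 215. By the scaled difference alone, 64 leaders, 24 start codons and 40 coding regions were at least 2-fold higher with eIF3a, and 15, 42 and 75 with eIF3c. With library totals in place of median centring the calls were 5 and 7 at start codons and 13 and 6 in coding regions. They were 3 and 10 in 3′ UTRs, so the lean of each of these areas turned. At stop codons they were 0 and 21. By library totals the median gene's direct difference was −0.79 at stop codons and −0.63 in 3′ UTRs, toward eIF3c, which the centring sets to 0.

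In leaders the called genes leaned toward eIF3a. SSA2, a cytosolic Hsp70 chaperone with the close copy SSA1 (chromosome XII, 95566 to 97485), had 423 leader counts with eIF3a, 136 with eIF3c, 89 in unselected 1-1 and 67 in unselected 1-2. Its direct difference was 1.93 (1.65 to 2.22) and its scaled difference 2.27 ± 0.27 (counting SE). At its start codon the direct difference was 0.46 and the scaled difference 0.37.

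GRS1, the glycyl-tRNA synthetase (chromosome II, 481364 to 483367), had 216, 87, 53 and 37 leader counts in the same order, a direct difference of 1.60 (1.24 to 1.98) and a scaled difference of 1.84 ± 0.36. ENO2, the main enolase of glycolysis (chromosome VIII, 451327 to 452640), had 2349, 1111, 588 and 354 leader counts. Its direct difference was 1.37 (1.27 to 1.48) and its scaled difference 1.4 ± 0.11. At the ENO2 start codon, with 57229, 59219, 42057 and 16382 counts, the scaled difference was −0.03, so the difference lay in the leader.

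MRT4, a ribosome assembly factor (chromosome XI, 426242 to 426952), had 102, 50, 33 and 19 leader counts and a scaled difference of 1.29 ± 0.48. STE2 was also called in leaders, with 102, 1, 145 and 2 counts, where the direct difference of 6.39 has an interval from 4.45 to 12.3. Its scaled difference of 1.28 ± 1.5 rests on those 1 and 2 counts. The other 13 were FET3, AGA2, HXK2, CCT7, GCN3, RVB1, YEF3, RPS6B, HOM2, RPA135, RPS3, TAL1 and NSR1, with scaled differences from 1.01 to 1.60. Of these FET3 is on the iron list and AGA2 on the a-specific list. The leaders of all 7 a-specific genes together had 15 counts with eIF3c and 5 in unselected 1-2, so the AGA2 value also rests on few counts.

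At start codons the most deeply counted call was RPS26A, a small-subunit ribosomal protein gene with the close copy RPS26B (chromosome VII, 148229 to 148588). It had 1960 counts with eIF3a, 1065 with eIF3c, 1152 in unselected 1-1 and 768 in unselected 1-2. The direct difference was 1.26 (1.15 to 1.37) and the scaled difference 1.67 ± 0.09. In the RPS26A coding region the scaled difference was 0.17.

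FLO11 had the largest value by the naming rule, with the start codon counts given above, a direct difference of 7.78 (5.87 to 13.7) and a scaled difference of 2.83 ± 1.3. PBY1, a P-body protein (chromosome II, 432036 to 434297), had 83, 41, 38 and 25 counts and a scaled difference of 1.79 ± 0.46. The Ty element frame YCL019W, which has many copies, had 171, 55, 87 and 25 counts and 1.23 ± 0.39. RDL2, a mitochondrial thiosulfate sulfurtransferase, had 93, 57, 135 and 82 counts and 1.37 ± 0.31. HLJ1, LOC1, TIS11 and MRD1 were the other 4.

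All 3 start codon calls toward eIF3c are named here. CWP1, a cell wall mannoprotein (chromosome XI, 261132 to 261851), had 34 counts with eIF3a, 1175 with eIF3c, 22 in unselected 1-1 and 136 in unselected 1-2. Its direct difference was −4.71 (−5.27 to −4.24) and its scaled difference −1.11 ± 0.41. ARO9, an aminotransferase of aromatic amino acid breakdown (chromosome VIII, 375709 to 377250), had 11, 174, 19 and 40 counts and a scaled difference of −1.49 ± 0.59. IMD2, an enzyme of GTP synthesis with close copies (chromosome VIII, 554396 to 555967), had 61, 194, 42 and 24 counts and −1.08 ± 0.42. Of these, IMD2 alone had an unselected difference under 2-fold (−0.20).

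In coding regions ENO1, an enolase and close copy of ENO2 (chromosome VII, 1000927 to 1002240), was the most deeply counted call. It had 6310 counts with eIF3a, 3167 with eIF3c, 4385 in unselected 1-1 and 2500 in unselected 1-2. The direct difference was 1.33 (1.26 to 1.39) and the scaled difference 1.21 ± 0.05. At the ENO1 start codon, with 1597, 3953, 1128 and 959 counts, the direct difference was −0.92 and the scaled difference −0.16. The coding and start codon values of ENO1 thus had opposite signs.

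The other coding calls toward eIF3a had fewer counts. BUD23, a methyltransferase that modifies 18S rRNA (chromosome III, 210718 to 211545), had 103, 44, 56 and 35 coding counts and a scaled difference of 1.57 ± 0.40. TMA10, a protein found with ribosomes (chromosome XII, 783127 to 783387), had 94, 34, 49 and 22, with 1.34 ± 0.47. TOA1, a subunit of the transcription factor TFIIA, had 64, 38, 42 and 28, with 1.19 ± 0.46. MCR1, a mitochondrial reductase, had 108, 64, 106 and 69, with 1.16 ± 0.32. QCR6, a subunit of respiratory complex III, and NSA2, a ribosome assembly factor, completed the 7.

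Coding calls toward eIF3c mostly had few counts with eIF3a, which the calling rule favours, since it asks for a value at least 2-fold lower with eIF3a. EMP70, an endosomal membrane protein (chromosome XII, 294091 to 296094), had 33 counts with eIF3a, 105 with eIF3c, 95 in unselected 1-1 and 54 in unselected 1-2, with a scaled difference of −1.44 ± 0.38. GCG1, which degrades glutathione, had 25, 76, 37 and 21 counts and −1.37 ± 0.51. HST2, a deacetylase of the sirtuin family, had 24, 78, 39 and 24 counts and −1.35 ± 0.50. RSF2, a zinc finger protein, had 23, 194, 30 and 52 counts and −1.24 ± 0.46. POL2, the catalytic subunit of DNA polymerase epsilon, had 28, 84, 100 and 63 counts and −1.21 ± 0.39.

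ILV1, CBR1, DSE4, GCD1, LYS4, DPH2, MF(ALPHA)2 and SCW11 were the other 8. LYS4, an enzyme of lysine synthesis, had the most counts in the selected libraries, with 171, 541, 134 and 99 coding counts and a scaled difference of −1.07. In the eIF2β-bound library LYS4 had 585 coding counts and in its unselected library 141.

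In 3′ UTRs 4 of the 5 calls toward eIF3a were near-identical frames among the ASP3 repeats of chromosome XII, so they do not count as separate genes. YLR156W had 192 counts with eIF3a, 89 with eIF3c, 398 in unselected 1-1 and 433 in unselected 1-2, and a scaled difference of 2.80. YLR161W (2.70), YLR157W-E (2.64) and YLR159W (2.29) followed. The fifth was FYV12, with 194, 188, 63 and 51 counts and a scaled difference of 1.31. In the eIF2β-bound library YLR156W had 143 counts, and 1048 in its unselected library. The 2 calls toward eIF3c were RHO1, a GTPase of cell polarity, with 19, 96, 52 and 36 counts, and CYS4, cystathionine β-synthase, with 20, 95, 49 and 31.

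Ribosomal protein and glycolysis mRNAs, like some other lists, had relatively fewer leader counts with eIF3c. Of 40 large-subunit ribosomal protein genes compared in leaders, 34 had a scaled difference above 0, with a median of 0.51 beside a median of 0 over all 996 genes. Their median over the own unselected library was 0.05 with eIF3a and −0.51 with eIF3c. Of 34 small-subunit genes 28 were above 0, with a median of 0.37, and of 18 genes of glycolysis and fermentation 16, with a median of 0.69. The 2-fold rule called 0, 2 and 2 of these lists, the small-subunit genes RPS6B and RPS3 and the glycolytic genes HXK2 (hexokinase) and ENO2, where 1.81% of all leaders compared were called in that direction. Among the other lists, aminoacyl-tRNA synthetases had a median scaled difference of 0.51 with 5 of 6 genes above 0, elongation and termination factors 0.20 with 5 of 8, and histones 0.25 with 4 of 7. Their medians over the own unselected library with eIF3c were −0.84, −0.12 and −0.41. Proteasome genes had a median scaled difference of 0.28 with 12 of 15 above 0, and cytosolic chaperones 0.32 with 12 of 17. Medians were also above 0 for eIF2 and eIF2B subunits (0.55, 3 of 4), mitochondrial ribosomal proteins (0.32, 3 of 5) and other initiation factors (0.27, 5 of 9). So were those of secreted and cell wall proteins (0.13, 11 of 20), respiratory chain and ATP synthase (0.10, 17 of 28) and ribosome biogenesis factors (0.05, 12 of 21). Toward eIF3c lay plasma membrane transporters (−0.17, 5 of 16 above 0) and amino acid biosynthesis (−0.07, 13 of 29). So did mRNAs with regulatory upstream reading frames (−0.30, 0 of 4) and eIF3 subunits (−0.16, 1 of 3).

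By the scaled difference alone, the ribosomal protein and glycolysis lists were closer to the median gene at start codons. There the median scaled difference was 0.16 for large-subunit genes, 0.18 for small-subunit genes and 0.16 for glycolysis and fermentation. Large-subunit genes were at −0.44 with eIF3a and −0.57 with eIF3c over the own unselected library, so both selections held fewer of their start codon footprints than of the median gene.

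Leader differences followed how heavily the start codon was occupied. Genes were split into equal groups by their start codon counts in the unselected libraries. The 333 genes with 0 to 143 such counts had a median scaled leader difference of −0.20, the 331 with 145 to 675 had −0.01, and the 332 with 677 to 106507 had 0.29. Over the own unselected library the medians were 0.01, 0.00 and 0.00 with eIF3a and 0.20, 0.02 and −0.31 with eIF3c. The eIF3c-bound leader ratios were also the wider of the pair, with a middle 50% of genes spanning 0.76 against 0.42. The 5′ ends given above reach further upstream with eIF3c, and how footprints near the start codon were assigned to the leader is not stated in the labels used. The part of footprint length in the leader result was not tested.

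Other lists differed in the coding region. Of 10 histone genes, all 10 had a scaled coding difference above 0, with a median of 0.50. Of 32 genes of the respiratory chain and ATP synthase 26 were above 0, with a median of 0.41, and of 30 proteasome genes 25, with a median of 0.26. Of 16 plasma membrane transporter genes 3 were above 0, with a median of −0.31. Of 8 mRNAs with regulatory upstream reading frames 1 was above 0, with a median of −0.84. Among these CLN3, a G1 cyclin, had 46 coding counts with eIF3a, 102 with eIF3c, 119 in unselected 1-1 and 55 in unselected 1-2, a direct difference of −0.81 and a scaled difference of −1.22. In these 5 lists 1 gene, QCR6, was called, beside 0.385% of all coding regions toward eIF3a and 0.714% toward eIF3c, so the calls give no result about these lists. Members of a list have different lengths, and coding ratios were lower for longer genes in both selections. The shortest, middle and longest groups of 606 genes each had medians of 0.47, −0.01 and −0.56 with eIF3a and 0.32, −0.02 and −0.37 with eIF3c. Their median scaled coding differences were 0.13, −0.0006 and −0.09. Split by unselected start codon counts, from fewest to most, the medians of the scaled coding difference were −0.19, 0.0004 and 0.13. The part of length and start codon counts in the list results was not tested.

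**Figure D4:**
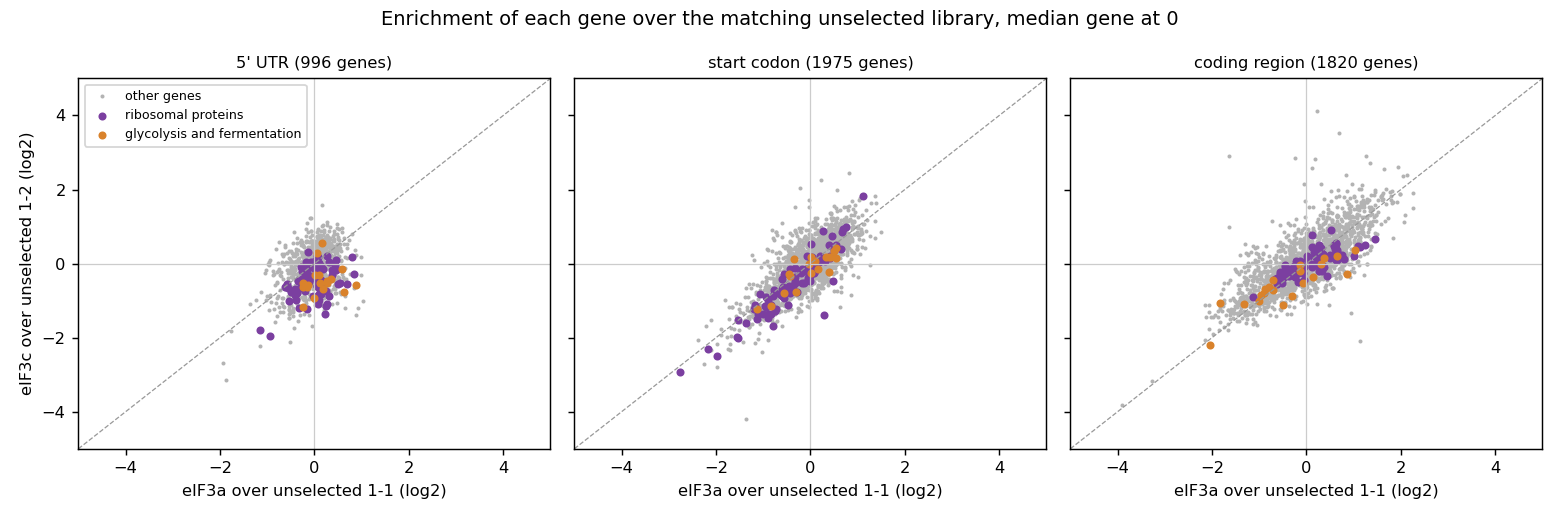
Each point is 1 gene, with the eIF3a-bound library over unselected 1-1 on the x axis and the eIF3c-bound library over unselected 1-2 on the y axis (log2, median gene of the area at 0), for leaders, start codons and coding regions, and a dashed line of equal values. Start codons and coding regions spread along the dashed line, and in leaders ribosomal protein and glycolysis genes lie near 0 for eIF3a and below 0 for eIF3c.

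Where the selections agree was read from each over its own unselected library, pairs that share no library. The Pearson correlation across genes was 0.76 at start codons (1975 genes), 0.74 in coding regions (1820), 0.38 in leaders (996), 0.44 in 3′ UTRs (215) and 0.93 at stop codons (88). Genes of all pairs share length and base composition, and are not independent replicates.

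Set against the median gene, more start codons were depleted with both factors than enriched with both. This order rests on the centring, since with library totals 59 start codons were enriched and 41 depleted with both. A gene was at least 2-fold below the median gene for 105 genes (5.32%) with eIF3a and 167 (8.46%) with eIF3c. Of these 85 were in both lists, 81.0% of the eIF3a list and 50.9% of the eIF3c list. For at least 2-fold above, the lists held 32 (1.62%) and 89 (4.51%) genes and shared 14, 43.8% and 15.7% of them. No start codon was 2-fold above with 1 factor and 2-fold below with the other.

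RPL1A, a large-subunit ribosomal protein gene with the close copy RPL1B, led the shared depletion. It had 762 counts with eIF3a against 3709 unselected and 776 with eIF3c against 1635 unselected, or −2.76 and −2.94. ILS1, the isoleucyl-tRNA synthetase, was at −2.26 and −2.72, from 153 against 527 and 177 against 321 counts. RPS28A (−2.17 and −2.32), GVP36, a Golgi vesicle protein (−2.10 and −2.32), and UTR2, a cell wall enzyme (−2.38 and −2.06), followed.

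Among the shared enriched start codons EMG1, a methyltransferase of 18S rRNA, had 361 counts with eIF3a against 99 unselected and 471 with eIF3c against 41 unselected, or 1.38 and 1.64. END3, an endocytosis protein, was at 1.36 and 1.81, CKB2, a subunit of casein kinase 2, at 1.28 and 1.65, MIT1, a transcription factor, at 1.17 and 1.46, and MDH1, mitochondrial malate dehydrogenase, at 1.2 and 1.18.

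In leaders, relative to the median gene, the lists were short with eIF3a and shared few genes. With library totals in place of that centring, 319 leaders were at least 2-fold above with both factors and 0 below. At least 2-fold above the median gene were 1 gene (0.1%) with eIF3a and 9 (0.904%) with eIF3c, and none was shared. Below were 12 (1.2%) and 68 (6.83%), with 6 shared. Among these RSM18, a mitochondrial ribosomal protein, was at −1.94 and −2.68, CBC2, a cap-binding protein, at −1.76 and −1.83, HOM2, an enzyme of threonine and methionine synthesis, at −1.16 and −2.23, RPS8B at −1.15 and −1.79, and STE2 at −1.87 and −3.15, the latter from 1 count.

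In coding regions the lists were of like size and overlapped more evenly. Above were 168 genes (9.23%) with eIF3a and 202 (11.1%) with eIF3c, with 102 shared, 60.7% and 50.5% of the lists. Below were 210 (11.5%) and 142 (7.8%), with 99 shared, 47.1% and 69.7%. At stop codons 15 (17%) and 12 (13.6%) were above with 10 shared, and 9 (10.2%) and 11 (12.5%) below with 6 shared. In 3′ UTRs 9 (4.19%) and 13 (6.05%) were above with 9 shared, and 4 (1.86%) and 7 (3.26%) below with 1 shared.

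The following examples of shared enriched stop codons were chosen after their values were seen. DMO1 had 1859 stop codon counts with eIF3a against 700 unselected, and 3609 with eIF3c against 333 unselected, at 3.50 and 3.42 over the median gene. All stop codons together had 16975 counts with eIF3a, 35032 with eIF3c, 61043 in unselected 1-1 and 37794 in unselected 1-2. Whether such counts belong to a neighbouring gene cannot be told, since the assignment to areas is not stated. YHR050W-A was at 3.88 and 3.32, from 609 against 175 and 934 against 92 counts. MIN9, PLS1, YMR001C-A and FYV12 were between 3.22 and 3.72 with eIF3a and between 3.16 and 4.3 with eIF3c. DMO1, YHR050W-A, PLS1 and FYV12 were also in the shared 3′ UTR list.

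GCN4, the transcription activator of amino acid synthesis genes, has a long leader with several short upstream reading frames that control its translation (chromosome V, 138918 to 139763). The leader held 97.7% of its counts with eIF3a and 97.2% with eIF3c, against 92.4% and 92.2% unselected. The leader had 22949 counts with eIF3a, 39226 with eIF3c, 9267 in unselected 1-1 and 5834 in unselected 1-2. That was 3.55% of all leader counts with eIF3a (Wilson interval 3.51% to 3.60%) and 4.76% with eIF3c (4.72% to 4.81%), beside 3.64% and 3.82% unselected. The direct difference was −0.48 and the scaled difference −0.39, short of a call.

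Along the leader the eIF3c-bound footprints were more concentrated in the first large peak. Peaks in the deposited coverage, a window of 1000 positions, were taken after the coverage was seen, as stretches of at least 10 positions that each held at least 0.2% of the sum on average over the 4 libraries. Positions 139 to 212 held 56.3% of the eIF3c-bound sum and 43.7% of the eIF3a-bound sum, against 32.8% in unselected 1-1 and 38.9% in unselected 1-2. The highest position was 168 with eIF3c and 165 with eIF3a. The second stretch, 257 to 312, held 17.5% with eIF3c and 23% with eIF3a, against 26.4% in unselected 1-1 and 23.8% in unselected 1-2. The next, 350 to 372, held 2.76% with eIF3c and 4.06% with eIF3a, against 7.41% and 7.14% unselected. The first peak thus held a larger share in both selected libraries than in their unselected libraries, and a larger share with eIF3c than with eIF3a.

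**Figure D5:**
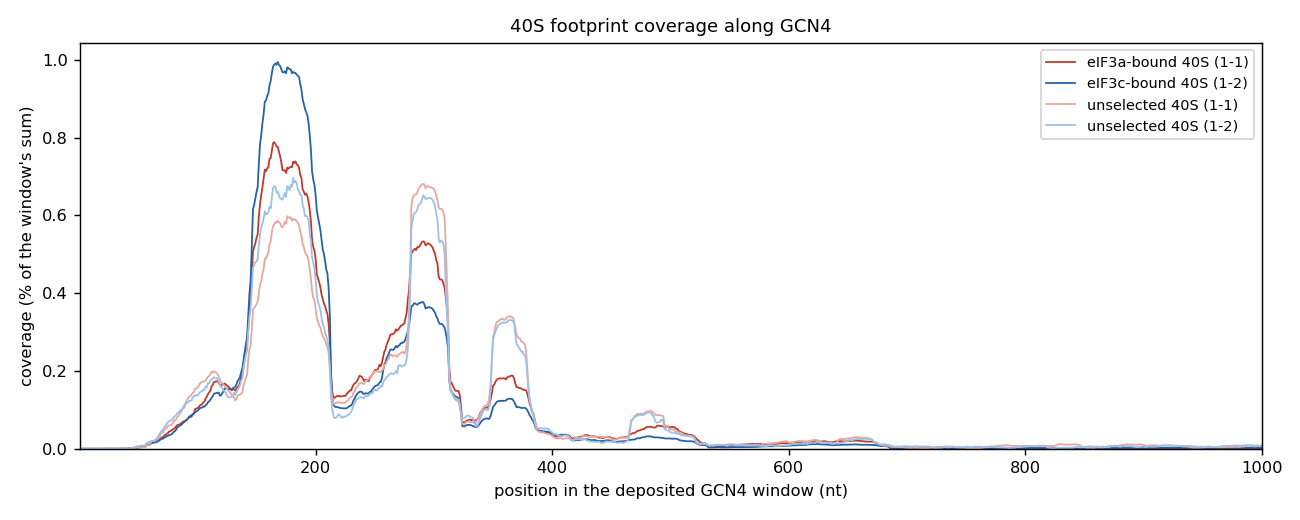
Coverage by 40S footprints along the deposited GCN4 window, in percent of each library's sum, against position in nt, with 1 line per library. The first peak, at positions 139 to 212, is highest in the eIF3c-bound library (56.3% of the sum, against 43.7% with eIF3a), and the later peaks are highest in the unselected libraries.

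The GCN4 start codon and coding region had few counts. The start codon had 145 with eIF3a, 165 with eIF3c, 84 in unselected 1-1 and 39 in unselected 1-2, a scaled difference of 0.10. The coding region had 352, 843, 602 and 391, a direct difference of −0.93 and a scaled difference of −0.86, also short of a call.

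mRNAs of the eIF3 subunits themselves had no call among the 3 leaders, 5 start codons, 6 coding regions and 1 3′ UTR compared. In no area were more than 2.33% of all genes called toward 1 factor, so this gives no result about these mRNAs. RPG1, the tagged gene of 1-1, had 169 start codon counts with eIF3a, 285 with eIF3c, 95 in unselected 1-1 and 109 in unselected 1-2. Its direct difference was −0.37, its unselected difference −1.19 and its scaled difference 0.82 ± 0.25. NIP1, the tagged gene of 1-2, had 686, 903, 400 and 164 counts and a scaled difference of −0.30. The start codons of TIF34, TIF35 and HCR1, the other subunits and the associated factor, had scaled differences of −0.04, 0.36 and 0.33. PRT1 is listed at 0 in the leader and start codon areas of all 4 libraries, and had 678, 1017, 851 and 488 coding counts and a scaled difference of −0.36.

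The eIF2 subunit mRNAs were also below the 2-fold threshold at their start codons, where 0.456% of all genes were called toward eIF3a and 0.152% toward eIF3c. The scaled differences there were −0.02 for SUI2, 0.17 for SUI3 and −0.03 for GCD11, and in leaders 0.35, −0.53 and 0.75. In the coding region SUI2 had 269, 207, 237 and 157 counts and a scaled difference of 0.81.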

How the data were processed

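Footprints of formaldehyde-fixed yeast 40S complexes were sequenced. Per the labels' protocols, selected libraries were immunoprecipitated through FLAG. Tools named in the submitters' processing notes are TopHat2 2.1.0, Bowtie2 2.2.6, Bowtie 1.2.2 and CASAVA 1.8, with build R64. Strandedness, multiple mapping and the assignment to areas are not stated there or in the labels, so paralogs and overlapping genes are uncertain. The authors deposited whole-number counts per gene and area, fractions of 5′ and 3′ ends with their limits, and coverage signal over GCN4. Counts and signal were not scaled to library size. The column named eIF2alpha was taken as eIF2β-bound.

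Counts plus 0.5 were log2 transformed and centred on the median gene of each area (Python 3.11.15, pandas 2.3.3, SciPy 1.17.1), each quantity separately. Intervals are Wilson for shares and exact binomial for direct ratios. Of 5818 IDs, 5776 matched the RefSeq table. With 1 library per factor no test was run. Named genes were the 5 highest and 5 lowest calls (3 in 3′ UTRs) by the smaller of the direct and scaled difference, the 5 strongest shared genes each way in leaders and start codons, and the eIF3 and eIF2 subunits and GCN4. Other named genes were chosen after their values were seen. Members and lists were chosen with earlier results of these data known. Alternatives were edgeR 4.0.16 TMM scaling (R 4.3.3), library totals, other minimums, folds and pseudocounts, and fewer genes.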

Additional observations from a re-analysis of the deposited data

Results flagged for a closer look

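In 3 genes the selections moved in opposite directions by at least 2-fold over their own unselected libraries. They were 1 of 996 leaders and, in coding regions, 1 gene of 1820 each way, with no gene in the other areas. The difference was not tested. TOM5, a small subunit of the mitochondrial import channel, was at 1.03 (log2) with eIF3a and −1.0 with eIF3c in its leader, from 86 against 16 and 99 against 37 counts. MEI4, a meiotic recombination gene, was at 1.13 and −2.08 in its coding region, from 102 against 59 and 68 against 187 counts. FLO11 was at −1.63 and 2.91 in its coding region, from the counts given above. It is also the example given above of coding counts in the eIF3c-bound library from a gene found mainly in the other strain.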

How the results depend on the processing

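Counts of called and shared genes moved by over 1.5 times in 55 cases and by less or not at all in 47, and none has a replicate check. Pairs below give eIF3a, then eIF3c. With library totals in place of median centring, leaders had 29 calls toward eIF3a, start codons 5 and 7, coding regions 13 and 6, 3′ UTRs 3 and 10, and stop codons 21 toward eIF3c. At minimums of 40 and 20 counts there were 31 and 6 in leaders, 28 and 25 at start codons, 33 and 73 in coding regions, 5 and 1 at stop codons and 11 and 5 in 3′ UTRs. At 400 and 200 there were 2 toward eIF3a in leaders, 1 and 0 at start codons, 1 and 2 in coding regions and 0 and 0 in 3′ UTRs. The direct difference alone gave 53 and 33, 65 and 57, 32 and 38, and 15 toward eIF3a in 3′ UTRs. A 1.5-fold rule gave 79 and 27, 46 and 33, 84 and 96, 1 and 1 at stop codons, and 17 and 9. TMM gave 5 toward eIF3c at start codons, and leaving out overlaps and copies 1 toward eIF3a in 3′ UTRs. Leaving out the mating-type and iron genes, an alternative chosen after seeing the data, kept each count within 1.5 times.

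Shared lists rest on the median centring. With library totals 319 leaders were above with both and 0 below, 59 start codons above and 41 below, and 10 coding regions above and 471 below. At 400 and 200 counts 0 leaders were below with both, 6 start codons above and 32 below, and 27 coding regions above and 13 below. No named direct difference changed sign under library totals or a pseudocount of 5, and 5 values left the counting interval, of STE2, FLO11, YLR156W, YLR161W and YLR157W-E.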
